A study of Mus musculus with 16 samples.

Results

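The miR-34 and miR-449 families were followed across 4 groups of whole mouse lung profiled on 1-colour Agilent miRNA microarrays. Members were the mouse miRNAs that the array design names miR-34a, miR-34b, miR-34c, miR-449a, miR-449b or miR-449c, from either arm of the hairpin. This gave 8 of the 611 mouse miRNAs on the array, 5 of the miR-34 family and 3 of the miR-449 family. Allergic airways disease was modelled in BALB/c mice of 8 to 12 weeks. OVA/OVA mice (6 arrays) were sensitised on day 0 with 50 μg ovalbumin (OVA) in 1 mg Alhydrogel and received 10 μg OVA intranasally from day 12 to day 15, and OVA/OVA DEX mice (4 arrays) additionally received the glucocorticoid dexamethasone (DEX) at 3 mg/kg from day 11. PBS/OVA mice (4 arrays) were injected with Alhydrogel without OVA and challenged with OVA, and PBS/PBS mice (2 arrays) were given Alhydrogel without OVA and, per the labels, a challenge with PBS, although the study's methods give OVA for all mice. The 12 arrays without DEX carry PBS as their treatment label. All groups had therefore received Alhydrogel and the same number of intranasal challenges, and lungs were collected 24 hours after the last of them. The labels number the replicates without saying that each is a separate mouse, so the p-values measure the spread between these arrays, which may be technical.

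MiRNAs of the miR-34 and miR-449 families carry the same seed in their 5p arms, the stretch near the 5′ end that pairs with target mRNAs, and so share many predicted targets. In the airway, miR-449 and the linked miR-34b and miR-34c are known as miRNAs of multiciliated epithelial cells, where they repress Cp110 and Notch pathway genes while cilia form. MiR-34a is transcribed from a locus of its own, is found in many cell types and is a known target of the tumour suppressor p53. The array measured miRNAs only, so ciliated cells could not be checked against their mRNA markers here, and the name of the families is used as background.

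RefSeq (GRCm38.p6) held the mature sequences of 6 of the 8 members, and miR-34c-5p and miR-449b were not matched. They are shown 5′ to 3′ with the seed, bases 2 to 8, in capitals, because members with one and the same seed differed in opposite directions between OVA/OVA and OVA/OVA DEX. The 4 listed 5p arms share the seed GGCAGUG, found in 4 of the 1679 mature mouse names of the RefSeq table. The 3p arms of miR-34b and miR-34c share AUCACUA, found in 2 of those names.
miR-34a-5p: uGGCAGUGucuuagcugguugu
miR-34b-5p: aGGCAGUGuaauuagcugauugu
miR-449a-5p: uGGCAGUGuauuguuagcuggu
miR-449c-5p: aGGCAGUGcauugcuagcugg
miR-34b-3p: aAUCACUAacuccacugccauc
miR-34c-3p: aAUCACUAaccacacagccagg

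MiR-34a-5p lies at chr4:150068473-150068494 on the plus strand, within the span of none of the annotated protein-coding genes. MiR-34b-5p lies at chr9:51103610-51103632 and miR-34b-3p at chr9:51103574-51103595, both on the minus strand, and miR-34c-3p at chr9:51103044-51103065 on the same strand. The hairpins of miR-34b and miR-34c are 451 bases apart and lie within the spans of Btg4 and Hoatz. MiR-449a-5p lies at chr13:113037549-113037570 and miR-449c-5p at chr13:113036008-113036028, both on the plus strand. Their hairpins are 1442 bases apart within the span of Cdc20b. The table of genes used here holds no exons, so exon and intron were not told apart. MiR-449a-5p and miR-449c-5p differ from each other by 4 single-base edits, miR-449a-5p and miR-34a-5p by 6, and miR-34b-3p and miR-34c-3p by 5. How far the probes of such close relatives take up each other's RNA was not tested.

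Each member was measured by 20 spots per array, carrying 2 probes, or 4 for miR-449b and miR-449c-5p. The signal of a miRNA is the sum over its probes of the mean background-subtracted spot intensity, scaled to the 75th percentile of the array. Detection is the call of the Feature Extraction software. MiR-34a-5p, miR-34b-5p, miR-34b-3p, miR-34c-5p and miR-449a-5p were detected on all 16 arrays, miR-34c-3p on 15, miR-449c-5p on 12 and miR-449b on 0. MiR-449b was therefore not tested. The other 7 entered the tests, which covered 266 miRNAs, those with detection throughout 1 group or more. For miR-34a-5p, miR-34b-5p, miR-34c-5p and miR-449a-5p all 20 spots were well above background on every array. The 3p arms and miR-449c-5p were dim, with 1 to 20 such spots for miR-34b-3p, 0 to 20 for miR-34c-3p and 0 to 5 for miR-449c-5p.

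Array brightness differed, from a total unscaled signal over the mouse miRNAs of 253333 on the dimmest OVA/OVA array to 942144 on a PBS/PBS array, with OVA/OVA DEX at 501545 to 640549. The positive control spots averaged 3060 to 3752 intensity units on the OVA/OVA DEX arrays, below the 3494 to 8612 of OVA/OVA with some overlap. Both PBS/PBS arrays lay on slide 1, and each of the other groups had at least 2 arrays on each of the 2 slides. Differences are given on the log2 scale from a limma fit over all 16 arrays, with p-values adjusted over 266 miRNAs. A miRNA passed at an adjusted p under 0.05, and was called where the difference was also at least 2-fold.

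**Figure D1:**
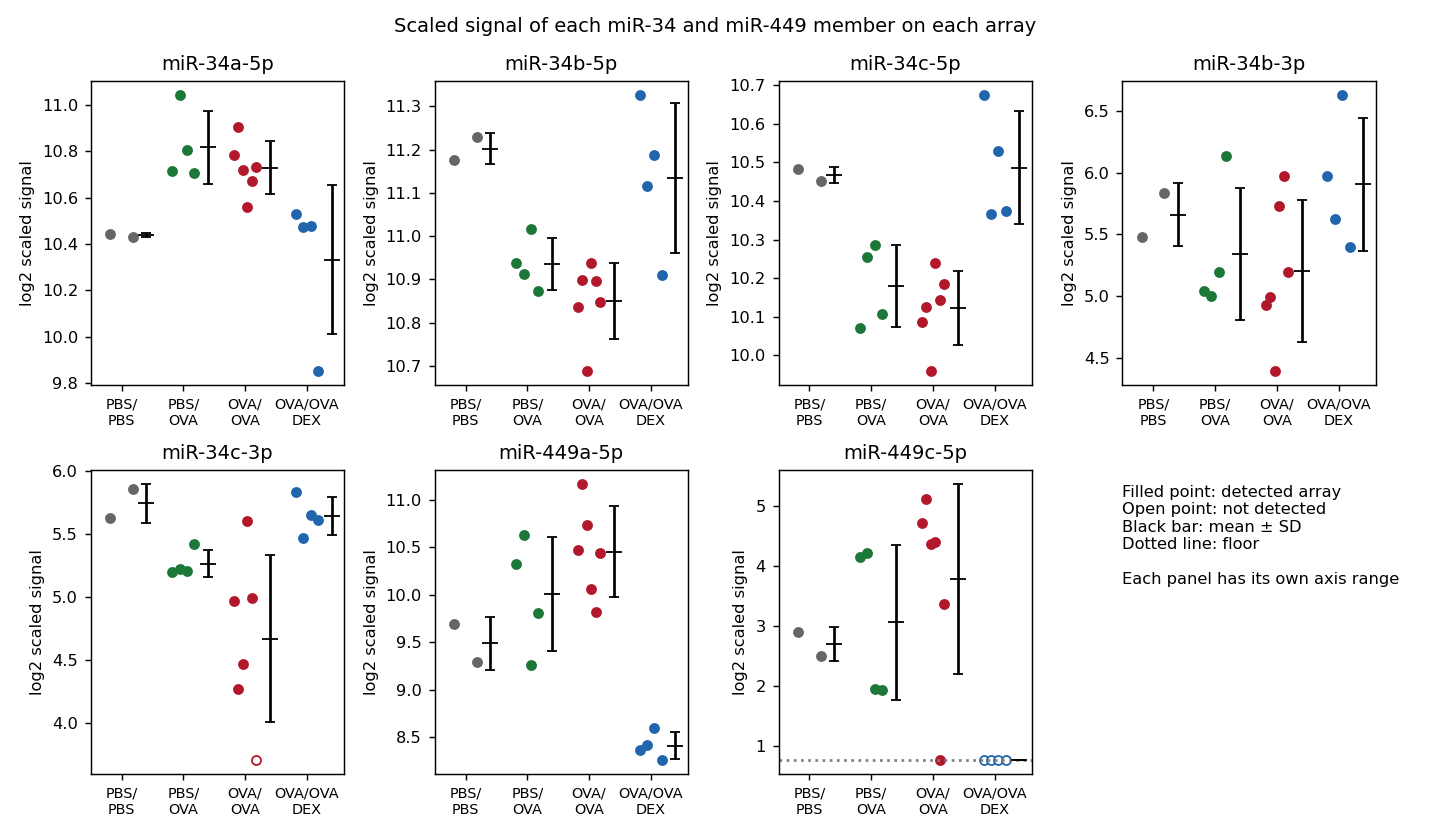
Scaled log2 signal of the 7 tested members (vertical axis, own range in each panel) on each array of the 4 groups (horizontal axis). Points are arrays, open where the member was not detected, bars are mean ± SD, and the dotted line is the floor of 0.77. The 4 OVA/OVA DEX arrays lie below all other arrays for miR-449a-5p and at the floor for miR-449c-5p.

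MiR-449a-5p, whose hairpin lies in the Cdc20b gene, was lower in OVA/OVA DEX than in untreated allergic lung and lower than in non-sensitised OVA-challenged lung. Its scaled signal was 332, 343, 388 and 307 units on the OVA/OVA DEX arrays. On the OVA/OVA arrays it was 905 at the lowest, 1403 at the median and 2308 at the highest, on the PBS/OVA arrays 1280, 1582, 613 and 898, and on the PBS/PBS arrays 826 and 627. The 4 OVA/OVA DEX arrays thus lay below all 12 others and close to each other, whereas PBS/OVA overlapped with both OVA/OVA and PBS/PBS. As a background, the arrays of 14.7% of the 266 miRNAs lay wholly higher in OVA/OVA than in OVA/OVA DEX, those of 7.52% lay wholly lower in OVA/OVA DEX than in PBS/OVA, and those of 8.27% wholly lower in OVA/OVA DEX than in PBS/PBS. The group means in order were 8.41 ± 0.14 (SD, n = 4) in OVA/OVA DEX, 9.49 ± 0.28 (n = 2) in PBS/PBS, 10.01 ± 0.60 (n = 4) in PBS/OVA and 10.45 ± 0.48 (n = 6) in OVA/OVA.

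In OVA/OVA the signal of miR-449a-5p exceeded that in OVA/OVA DEX 4.11-fold, a log2 difference of 2.04 (SE 0.27, 95% confidence interval 1.45 to 2.63, limma adjusted p = 9.08e-05). It was called in that direction, as were 9.4% of the 266 miRNAs. Both of its probes moved alike, by 2.19 (SE 0.21) and 1.95 (SE 0.21). The difference was 2.50 within slide 1 and 1.76 within slide 2. Whole lung is a mixture of cells, so fewer cells that express a miRNA and less of it per cell cannot be told apart here.

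MiR-449a-5p was also 3.01-fold lower in OVA/OVA DEX than in PBS/OVA, with a log2 difference of -1.59 (SE 0.30, 95% confidence interval -2.23 to -0.95, limma adjusted p = 0.00786). It was 1 of 2 miRNAs called in this comparison, where 0.752% of the 266 were called lower and 0% higher. The other, miR-135b-5p, is named because of this count, after its value of -1.77 was seen. Within slide 1 the difference of miR-449a-5p was -1.63 and within slide 2 it was -1.56. The call was lost when only these 2 groups were fitted (adjusted p = 0.0512) and by the exact Mann-Whitney test (adjusted p = 0.185), and the adjusted p ranged from 0.00285 to 0.185 over all alternatives.

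Without DEX, the allergic group did not separate from its control. MiR-449a-5p differed between OVA/OVA and PBS/OVA by 0.45 (SE 0.27, 95% confidence interval -0.14 to 1.03, limma adjusted p = 0.218), with overlapping arrays. The sign of this difference turned without scaling between arrays (-0.07) and with scaling to the positive control spots (-0.35). These settings moved the median of all 266 miRNAs to -0.555 and -0.84. Relative to the median of each setting, the difference was 0.10 to 0.55 over 6 ways of scaling or background correction. Against PBS/PBS, the 6 OVA/OVA arrays lay above both arrays, as did those of 25.9% of the 266 miRNAs. The difference was 0.96 (SE 0.35, 95% confidence interval 0.22 to 1.70), and the test was not passed (limma adjusted p = 0.0550). It was passed without OVA/OVA replicate 4 (1.04, adjusted p = 0.0389), without OVA/OVA replicate 5 (1.09, adjusted p = 0.0264), and without PBS/OVA replicate 2 (adjusted p = 0.0356) or 3 (adjusted p = 0.0394), which enter only through the spread. That difference was 1.33 within slide 1, 1.34 (adjusted p = 0.0367) with the replicate number as a block and -0.14 without scaling between arrays. Its adjusted p ranged from 0.0264 to 0.931 over the alternatives. Without scaling the median of all 266 miRNAs was -1.115. Relative to the median of each of the 6 scalings or corrections, the difference was 0.35 to 1.11.

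MiR-449a-5p was lower on all 4 OVA/OVA DEX arrays than on both PBS/PBS arrays, with a log2 difference of -1.08 (SE 0.37, 95% confidence interval -1.86 to -0.29). The limma adjusted p was 0.318. In this comparison 0 of 266 miRNAs were called (0%), 19 had an unadjusted p under 0.05, and fitting only these 2 groups gave miR-449a-5p an adjusted p of 0.0361 (0.0361 to 0.960 over the alternatives). PBS/OVA and PBS/PBS differed by 0.51 (SE 0.37, 95% confidence interval -0.27 to 1.30, limma adjusted p = 0.997). Without scaling between arrays this difference became -0.07, where the median of all 266 miRNAs was -0.565.

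MiR-449c-5p, which shares the Cdc20b span and the seed with miR-449a-5p, was detected on all 12 arrays of the groups without DEX and on 0 of the 4 OVA/OVA DEX arrays. Its scaled signal on the OVA/OVA arrays was -2.79 at the lowest, 20.8 at the median and 34.6 at the highest, and on the PBS/OVA arrays it was 17.8, 18.5, 3.86 and 3.85. On the PBS/PBS arrays it was 7.52 and 5.67, and on the OVA/OVA DEX arrays it was below 0 throughout, between -10.5 and -0.438. OVA/OVA replicate 5, where the software called the miRNA detected although its summed signal was below 0, was set to the floor of 1.71 units together with the OVA/OVA DEX arrays. That replicate also had the lowest miR-449a-5p signal of the OVA/OVA group. At most 5 of the 20 miR-449c-5p spots were well above background on any array, and 1 on PBS/OVA replicate 3 and OVA/OVA replicate 5. Whether its probes take up RNA of the close relative miR-449a-5p was not tested.

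Because miR-449c-5p was not above background in OVA/OVA DEX, its difference depends on the value set there. With the lowest signal of a detected miRNA, or the floor, on each of those arrays, OVA/OVA was 2.62-fold higher. The fitted values, with the floor, were called (limma adjusted p = 0.00512). The fold is no strict minimum, since a higher floor and normexp gave smaller differences. The call was lost with a floor of 10 signal units (log2 difference 0.89, adjusted p = 0.0335), with normexp background correction (0.39, adjusted p = 0.291) and by the exact Mann-Whitney test (adjusted p = 0.0714), and the adjusted p ranged from 1.13e-04 to 0.291 over the alternatives. Set in the same way, PBS/OVA was 1.59-fold higher than OVA/OVA DEX, and this was not called as fitted (limma adjusted p = 0.135). It was called without OVA/OVA replicate 5 (adjusted p = 0.0302) and with the replicate number as a block (adjusted p = 0.0313), over a range of 0.0302 to 0.864. MiR-449c-5p did not pass between OVA/OVA and PBS/OVA, with a log2 difference of 0.72 (SE 0.74, 95% confidence interval -0.87 to 2.31, adjusted p = 0.460). This difference was -0.036 with scaling to the positive control spots and 1.58 (adjusted p = 0.0251) with the replicate number as a block, and its adjusted p ranged from 0.0251 to 0.985. Against PBS/PBS the difference of OVA/OVA was 1.08 (SE 0.93, limma adjusted p = 0.379), and it was called with normexp (1.01, adjusted p = 0.0243), with the total gene signal (1.36, adjusted p = 0.0167) and with the replicate number as a block (2.40, adjusted p = 0.0196), over a range of 0.0167 to 0.869.

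MiR-34b-5p and miR-34c-5p, which come from neighbouring hairpins on one strand, were slightly lower in OVA/OVA than in OVA/OVA DEX. The scaled signal of miR-34b-5p was 1649 at the lowest, 1874 at the median and 1962 at the highest on the OVA/OVA arrays, and 2568, 2217, 2331 and 1923 on the OVA/OVA DEX arrays. It was 1961, 1928, 2071 and 1876 on the PBS/OVA arrays, and 2315 and 2399 on the PBS/PBS arrays. OVA/OVA DEX replicate 4 fell inside the OVA/OVA range, and the other 3 OVA/OVA DEX arrays lay above it, near PBS/PBS. Between OVA/OVA and OVA/OVA DEX the log2 difference was -0.28 (SE 0.08, limma adjusted p = 0.00777), a 1.22-fold difference. Its probes gave -0.18 (SE 0.16) and -0.33 (SE 0.08), the former little more than its error. The test was not passed with quantile normalization (-0.19, adjusted p = 0.0977) or without scaling between arrays (-0.57, adjusted p = 0.251), and the adjusted p ranged from 1.75e-04 to 0.251.

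The scaled signal of miR-34c-5p was 995 at the lowest, 1125 at the median and 1209 at the highest on the OVA/OVA arrays, and 1635, 1320, 1478 and 1328 on the OVA/OVA DEX arrays. It was 1076, 1223, 1248 and 1103 on the PBS/OVA arrays, and 1430 and 1402 on the PBS/PBS arrays. All 4 OVA/OVA DEX arrays lay above the 10 arrays of OVA/OVA and PBS/OVA, a separation that 16.5% of the 266 miRNAs showed against OVA/OVA and 7.89% against PBS/OVA. MiR-34c-5p passed between OVA/OVA and OVA/OVA DEX with a difference of -0.36 (SE 0.08, limma adjusted p = 0.00202, or 0.210 without scaling between arrays, the highest of a range that began at 1.75e-04), and not between OVA/OVA DEX and PBS/OVA (0.31, SE 0.08, adjusted p = 0.0684). The latter was passed with the deposited processed values (0.35, adjusted p = 0.0444, within a range of 0.0444 to 0.989).

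Against PBS/PBS, OVA/OVA was lower in both miR-34b-5p (-0.35, SE 0.10, limma adjusted p = 0.0186) and miR-34c-5p (-0.34, SE 0.10, adjusted p = 0.0224), without overlap between arrays, where 12.4% of the 266 miRNAs passed as lower and the arrays of 25.6% lay wholly lower. Leaving out either PBS/PBS array took the adjusted p to 0.122 and 0.157 for miR-34b-5p and to 0.167 and 0.134 for miR-34c-5p. With the replicate number as a block it was 0.0834 and 0.0767, and over all alternatives it reached 0.240 and 0.213, from 0.00479 for both. Between OVA/OVA and PBS/OVA neither passed as fitted. MiR-34b-5p differed by -0.08 (95% confidence interval -0.25 to 0.08, adjusted p = 0.410) and miR-34c-5p by -0.06 (-0.22 to 0.11, adjusted p = 0.581). With scaling to the positive control spots, which moved the median of all miRNAs to -0.84, both passed as lower, at -0.88 (adjusted p = 0.00232, within a range of 0.00232 to 0.863) and -0.86 (adjusted p = 0.00243, within a range of 0.00243 to 0.868).

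MiR-34a-5p, the member outside both clusters, had its lower levels in PBS/PBS and OVA/OVA DEX. Its scaled signal was 1392 and 1382 on the PBS/PBS arrays, 1476, 1423, 1425 and 924 on the OVA/OVA DEX arrays, and 1681, 2109, 1787 and 1669 on the PBS/OVA arrays. On the OVA/OVA arrays it was 1508 at the lowest, 1692 at the median and 1914 at the highest. The 10 arrays of PBS/OVA and OVA/OVA lay above the 6 others, and within each of these pairs of groups the arrays overlapped. The gap was small, from 1476 to 1508 units. Of all 266 miRNAs, 14.7% lay wholly higher in OVA/OVA than in OVA/OVA DEX and 25.9% wholly higher than in PBS/PBS. A share of 7.52% lay wholly lower in OVA/OVA DEX than in PBS/OVA. How many showed the whole split was not counted.

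MiR-34a-5p passed between OVA/OVA and OVA/OVA DEX, in the direction of miR-449a-5p, with a log2 difference of 0.39 (SE 0.12, limma adjusted p = 0.0157). Without OVA/OVA DEX replicate 4, its lowest array, the difference was 0.23 (adjusted p = 0.0364). Both probes gave a positive difference, 0.45 (SE 0.18) and 0.36 (SE 0.16). The sign turned with scaling to the positive control spots (-0.57, adjusted p = 0.00916), a scaling that moved the median of all 266 miRNAs to -1.05 from -0.09. Relative to that median miR-34a-5p was 0.48 higher under both scalings, as it must be, since they differ only by a factor per array. The test was not passed without scaling between arrays (0.10, adjusted p = 0.827) or with the percentile taken over all miRNAs (0.17, adjusted p = 0.415), so the adjusted p ranged from 0.00916 to 0.827. The difference was 0.65 within slide 1 and 0.19 within slide 2. MiR-34a-5p did not pass between OVA/OVA DEX and PBS/OVA (-0.48, SE 0.14, adjusted p = 0.0684), between OVA/OVA and PBS/OVA (-0.09, 95% confidence interval -0.35 to 0.18, adjusted p = 0.589) or between OVA/OVA and PBS/PBS (0.29, 95% confidence interval -0.047 to 0.63, adjusted p = 0.171). With the replicate number as a block the first of these had an adjusted p of 0.0487 (range 0.0487 to 0.943), and without OVA/OVA DEX replicate 4 the last had one of 0.0493 (range 0.0210 to 0.532). With scaling to the positive control spots miR-34a-5p was lower in OVA/OVA than in PBS/OVA, by a difference of -0.89 (adjusted p = 0.00181, range 0.00181 to 0.926). There the median of all 266 miRNAs was -0.84.

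The 3p arms were dim and less firmly measured. The scaled signal of miR-34c-3p on the OVA/OVA arrays was 13.1 at the lowest, 26.7 at the median and 48.6 at the highest. It was 56.9, 44.3, 50.2 and 48.9 with DEX, 36.8, 37.4, 37.0 and 42.8 in PBS/OVA, and 49.5 and 57.8 in PBS/PBS. The OVA/OVA arrays were the most spread and reached the lowest values, and OVA/OVA replicate 6 was not detected. MiR-34c-3p passed between OVA/OVA and OVA/OVA DEX (-0.97, SE 0.27, limma adjusted p = 0.00923) and was called lower in OVA/OVA than in PBS/PBS (-1.07, SE 0.34, adjusted p = 0.0355). On OVA/OVA replicates 2, 3 and 6, in that order, 0, 1 and 1 of its 20 spots were well above background. Against OVA/OVA DEX the test was not passed without scaling between arrays (-1.26, adjusted p = 0.10). The 2-fold size was reached there with the percentile over all miRNAs (-1.19), quantile normalization (-1.20), control spots (-1.94) and the total gene signal (-1.23), and without OVA/OVA replicate 1 (-1.03), 4 (-1.16) or 5 (-1.04) or OVA/OVA DEX replicate 2 (-1.03), with an adjusted p of 4.86e-04 to 0.781 over the alternatives.

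Both of these differences of miR-34c-3p turned positive with normexp background correction, to 0.061 and 0.46 (adjusted p = 0.781 and 0.0790), a correction that moved the median of all 266 miRNAs in these comparisons to 0.16 and 0.54. The test against PBS/PBS was also no longer passed without OVA/OVA replicate 2 (adjusted p = 0.0651), without OVA/OVA replicate 3 (0.0613) or without either PBS/PBS array (0.153 and 0.229). The 2-fold size was no longer reached without OVA/OVA replicate 6 (-0.88). With array brightness as a covariate the difference was -0.33 (adjusted p = 0.625), and the adjusted p ranged from 0.00508 to 0.625 over the alternatives. Between OVA/OVA and PBS/OVA miR-34c-3p did not pass (-0.60, SE 0.27, limma adjusted p = 0.105), although it did without OVA/OVA replicate 4 (-0.78, adjusted p = 0.0160, within a range of 0.00651 to 0.493).

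MiR-34b-3p was 44.5 and 57.2 units on the PBS/PBS arrays, 32.9, 32.0, 36.7 and 70.1 on those of PBS/OVA, and 62.9, 49.4, 99.0 and 42.1 on those of OVA/OVA DEX. OVA/OVA had a lowest value of 21.0, a median of 34.2 and a highest of 62.7, and all groups overlapped. As fitted it did not pass in any comparison. Against PBS/PBS the OVA/OVA difference was -0.46 (SE 0.41, limma adjusted p = 0.403), and it passed as lower under 4 other scalings, from -0.99 (adjusted p = 0.0387 with the percentile over all miRNAs and 0.0365 with quantile normalization) to -1.55 (0.0231 without scaling), with -1.39 (0.0268) for the control spots and a range of adjusted p of 0.0231 to 0.835. The OVA/OVA against OVA/OVA DEX difference was -0.71 (SE 0.33, limma adjusted p = 0.0825), and -0.86 (adjusted p = 0.0327) without OVA/OVA replicate 5. It was 0.038 with normexp background correction and -1.02 (adjusted p = 0.00501) with quantile normalization, and the adjusted p ranged from 0.00165 to 0.890.

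**Figure D2:**
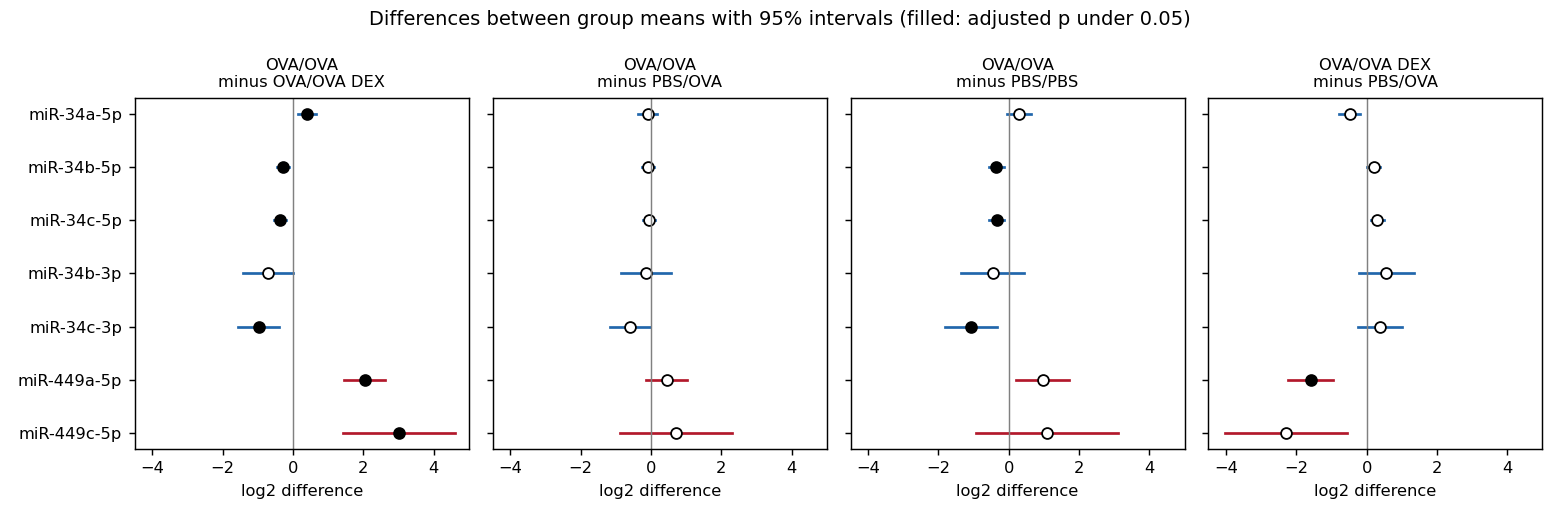
Log2 difference between group means (horizontal axis) of each tested member (vertical axis) in 4 comparisons, with 95% confidence intervals, red for miR-449 and blue for miR-34, and filled points at an adjusted p under 0.05. The left panel shows miR-449a-5p at 2.04 and miR-34c-5p at -0.36, on opposite sides of 0; values of miR-449c-5p against OVA/OVA DEX rest on the floor.

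In all, 2 of the 7 tested members, miR-449a-5p and miR-449c-5p, were called between OVA/OVA and OVA/OVA DEX. Both were higher in OVA/OVA, beside 9.4% of all 266 miRNAs called in that direction. MiR-449c-5p entered the tests only through the groups without DEX, and its values with DEX are the floor. Uptake of miR-449a-5p RNA by its probes was not tested. Of the 5 members detected on all arrays, 1 was called. By the adjusted p alone, 3 members were higher and 3 lower, beside 21.1% and 32.3% of all miRNAs, so the small differences of the miR-34 members stood among many of their size. In OVA/OVA against PBS/PBS 1 member was called, miR-34c-3p, beside 3.76% of all miRNAs called lower. In OVA/OVA against PBS/OVA 0 of 7 members were called or passed in limma, beside 5.26% and 31.6% of all miRNAs in either direction, and 1 had an unadjusted p under 0.05, as did 120 of all 266 miRNAs. In PBS/OVA against PBS/PBS 0 were called, beside 0.376%, and 3 had an unadjusted p under 0.05, as did 12 of all 266 miRNAs. Between OVA/OVA DEX and PBS/OVA, 1 member was called, the arrays of 2 members lay wholly above (miR-34c-3p and miR-34c-5p) and those of 3 wholly below (miR-34a-5p, miR-449a-5p and miR-449c-5p), where 7.89% and 7.52% of all 266 miRNAs did so. These comparisons share arrays and are not independent of each other.

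To ask whether miR-449a-5p moved by a different amount than members of the miR-34 family, within-array differences were taken. The log2 signal of a miR-34 member was subtracted from that of miR-449a-5p within each array, so that any factor common to the array cancels. The 5 members detected on all 16 arrays were used, which left 4 pairs between families and 3 pairs of arms or neighbours within miR-34b and miR-34c. All 4 pairs between families share miR-449a-5p, the only miR-449 member among the 5. They are therefore not independent of each other or of its own difference. Each pair was compared between groups by a two-sided exact permutation test over arrays, with adjustment over 21 tests. The height of such a difference depends on the probes and has no meaning of its own, and only its change between groups is read.

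The difference between miR-449a-5p and miR-34c-5p was -2.07 ± 0.17 (SD, n = 4) in OVA/OVA DEX, -0.98 ± 0.26 (n = 2) in PBS/PBS, -0.18 ± 0.64 (n = 4) in PBS/OVA and 0.33 ± 0.53 (n = 6) in OVA/OVA. Between OVA/OVA and OVA/OVA DEX it changed by 2.40 (95% interval 1.72 to 3.08, exact permutation p = 0.00476, adjusted p = 0.0333). The change was 2.32 (1.65 to 2.96) for miR-449a-5p against miR-34b-5p and 1.64 (1.12 to 2.17) against miR-34a-5p, each with the same exact permutation p and adjusted p, and 2.74 (1.46 to 4.07) against miR-34b-3p with an exact permutation adjusted p of 0.05. In all 4 pairs the OVA/OVA and OVA/OVA DEX arrays did not overlap. The p of 0.00476 is the smallest that 6 arrays against 4 allow. Without any 1 of the arrays of these groups, except OVA/OVA replicate 5, the adjusted p of the 3 passing pairs was 0.05 to 0.0625, since fewer arrays allow fewer permutations, and the changes stayed between 1.53 and 2.50.

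Like miR-449a-5p alone, the same 4 pairs did not overlap between OVA/OVA DEX and PBS/OVA, with changes of -1.11 to -2.16. The exact permutation p was 0.0286, the smallest that 4 arrays against 4 allow, and the adjusted p was 0.075. Between OVA/OVA and PBS/OVA the arrays of all 4 pairs overlapped. The change was 0.50 against miR-34c-5p (95% interval -0.40 to 1.36) and 0.54 against miR-34a-5p (-0.14 to 1.21), with exact permutation adjusted p of 0.336 and 0.210.

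**Figure D3:**
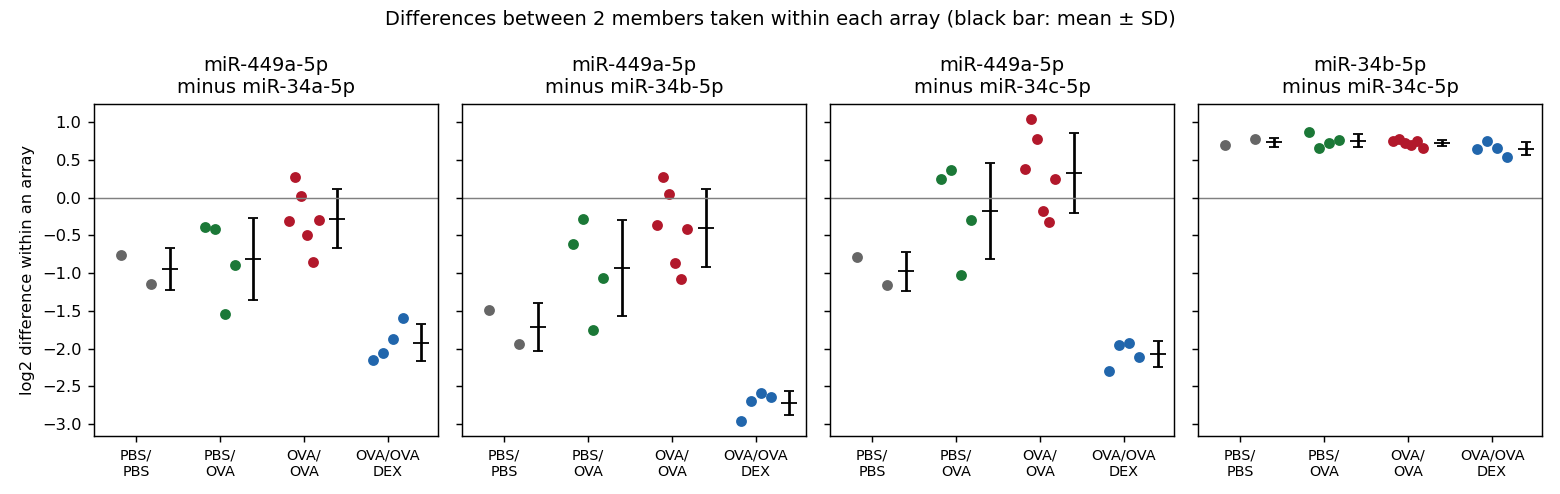
Log2 difference between 2 members taken within each array (vertical axis, shared) by group (horizontal axis). Points are arrays and bars are mean ± SD. The 4 OVA/OVA DEX arrays lie lowest in the 3 panels with miR-449a-5p, at means of -1.92, -2.72 and -2.07, whereas miR-34b-5p minus miR-34c-5p stays between 0.53 and 0.87.

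Within the miR-34b and miR-34c pair, the 2 5p arms moved almost together. Whether their probes take up each other's RNA was not tested, and miR-34c-5p had no matched sequence to compare. MiR-34b-5p minus miR-34c-5p was 0.73 ± 0.06 (SD, n = 2) in PBS/PBS, 0.75 ± 0.09 (n = 4) in PBS/OVA, 0.73 ± 0.04 (n = 6) in OVA/OVA and 0.65 ± 0.09 (n = 4) in OVA/OVA DEX. Its SD over the 16 arrays was 0.07, against 0.17 for miR-34b-5p and 0.20 for miR-34c-5p alone. The change between OVA/OVA and OVA/OVA DEX was 0.08 (95% interval 0 to 0.16, exact permutation p = 0.0714, adjusted p = 0.167). It was 0.17 within slide 1 and 0.0069 within slide 2, and 0.32 (exact permutation adjusted p = 0.0333) with quantile normalization, which does not cancel within an array. Of the 9 tests on arms and neighbours, 0 passed at an adjusted p under 0.05.

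The 2 arms of the miR-34b hairpin were less tightly tied on these arrays. MiR-34b-5p minus miR-34b-3p had an SD of 0.47 over the 16 arrays and changed by 0.42 between OVA/OVA and OVA/OVA DEX (95% interval -0.35 to 1.15, exact permutation p = 0.224, adjusted p = 0.336). With quantile normalization the change was 0.83 (exact permutation adjusted p = 0.0333) and with normexp it was -0.29. The arms of the miR-34c hairpin were not tested in this way, since miR-34c-3p was not detected on 1 array.

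Profiles were also set against those of all 266 tested miRNAs, by the root mean square over the 16 arrays of the difference between 2 profiles, each centred on its own mean. MiR-34c-5p was the nearest profile to miR-34b-5p and miR-34b-5p the nearest to miR-34c-5p, at 0.07 on the log2 scale. With quantile normalization they ranked 13 and 4 in each other's lists, at 0.15. Outside the families the nearest to miR-34b-5p were miR-375-3p (0.08), miR-210-3p (0.09) and miR-99a-5p (0.10), and the nearest to miR-34c-5p were miR-375-3p (0.09), miR-210-3p (0.12) and miR-27a-3p (0.14). MiRNAs that vary little lie near each other by this measure. The part of probes that may take up the RNA of both miR-34b-5p and miR-34c-5p was not tested.

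MiR-34a-5p had its nearest profiles in miR-324-5p (0.12), let-7i-5p (0.15) and miR-301a-3p (0.15), with miR-34b-5p at rank 97 and miR-449a-5p at rank 217. For miR-449a-5p the nearest were miR-135a-1-3p (0.47), miR-342-5p (0.49) and miR-130b-3p (0.51). Of its own kin, miR-34a-5p came at rank 27 (0.73), miR-449c-5p at rank 70 (0.88) and miR-34c-5p at rank 175 (1.05). The nearest to miR-34b-3p were miR-7a-1-3p (0.32), miR-669f-3p (0.39) and let-7d-3p (0.41). With quantile normalization at least 2 of the nearest 3 changed for each of these members. The nearest were then miR-135a-1-3p (0.52), miR-135b-5p (0.54) and miR-21-5p (0.56) for miR-449a-5p, and let-7i-5p (0.17), miR-130a-3p (0.18) and miR-22-3p (0.20) for miR-34a-5p. For miR-34b-3p they were miR-3107-5p (0.28), miR-451 (0.29) and miR-30a-3p (0.29).

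MiRNAs that mark other cell types of the lung moved with the groups as well. For OVA/OVA compared with OVA/OVA DEX, 5 of 7 tested haematopoietic miRNAs passed as higher and 0 as lower, with a median log2 difference of 0.57 beside -0.09 over all 266 miRNAs. The log2 of their summed signal was 15.09 to 15.62 in OVA/OVA, above 14.28 to 14.81 with DEX, 14.13 to 14.70 in PBS/OVA and 14.48 to 14.63 in PBS/PBS. The brightest, miR-142-3p, differed by 1.05 (SE 0.16, limma adjusted p = 1.93e-04) between OVA/OVA and OVA/OVA DEX and by -0.02 (adjusted p = 0.970) between OVA/OVA DEX and PBS/OVA. In the latter comparison 1 of the 7 passed as lower and 0 as higher. It was miR-342-3p, named because of this count, at -0.58 (SE 0.11, limma adjusted p = 0.0079). With scaling to the positive control spots the median of the list in OVA/OVA against OVA/OVA DEX was -0.40, with 1 passing as higher and 2 as lower.

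Of 11 tested epithelial miRNAs, 1 passed as higher and 6 as lower in OVA/OVA than in OVA/OVA DEX, with a median of -0.27. These counts moved with the scaling. With the control spots 0 passed as higher and 11 as lower (median -1.23), with quantile normalization 1 and 1 (-0.35), with the percentile over all miRNAs 0 and 4 (-0.49), without scaling 0 and 0 (-0.53) and with normexp background correction 1 and 0 (0.06). Between OVA/OVA DEX and PBS/OVA 0 passed, with a median of -0.02 that ran from -0.25 to 0.14 across the scalings. The log2 of their summed signal was 13.18 to 13.47 with DEX, a range that held those of OVA/OVA (13.26 to 13.34), PBS/OVA (13.26 to 13.33) and PBS/PBS (13.25 to 13.26). MiR-200b-3p, the brightest epithelial miRNA, differed by -0.09 (SE 0.06, limma adjusted p = 0.190) between OVA/OVA and OVA/OVA DEX. MiR-205-5p, on the epithelial list, was not among the miRNAs tested.

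Both red cell miRNAs were called lower in OVA/OVA than in OVA/OVA DEX, with a median of -1.05, and the log2 of their summed signal, 16.61 to 17.06 with DEX, was 15.18 to 16.11 in OVA/OVA, 15.55 to 16.42 in PBS/OVA and 16.15 to 16.28 in PBS/PBS. The brightest, miR-451, differed by -1.04 (SE 0.20, limma adjusted p = 9.22e-04). With quantile normalization 1 of them passed and the median was -0.67. MiR-486-5p, the other member of that list, was not found on the array under that name and is not counted here, although the study lists it among its changed miRNAs. In the same comparison 2 of 2 endothelial (median -0.59, miR-126-3p brightest at -0.30) and 2 of 2 smooth muscle miRNAs (median -0.38, miR-143-3p brightest at -0.31) passed as lower. So did 2 of 3 tested striated muscle miRNAs (median -0.88), but not the brightest, miR-1a-3p, at -0.81 (limma adjusted p = 0.0524). The part of these cell types in the differences of the miR-34 and miR-449 members was not tested.

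MiR-34a is grouped with other miRNAs linked to p53, of which 3 were tested. Of these, 0 passed as higher and 1 as lower in OVA/OVA than in OVA/OVA DEX, with a median of -0.18 beside -0.09 over all miRNAs. MiR-107-3p, the brightest of them, differed by -0.09 (SE 0.07, limma adjusted p = 0.282). The log2 of their summed signal overlapped between groups, at 11.00 to 11.21 with DEX, 10.86 to 11.14 in OVA/OVA, 10.97 to 11.15 in PBS/OVA and 11.09 to 11.11 in PBS/PBS.

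The members' differences in OVA/OVA against OVA/OVA DEX were compared across scalings. As fitted, miR-449a-5p differed in favour of OVA/OVA under 6 of 6 ways of scaling or background correction, from 1.07 to 2.06. Relative to the median of all tested miRNAs it was 1.54 to 2.21 higher, miR-34a-5p 0.21 to 0.56 higher, and miR-34b-5p and miR-34c-5p lower by a difference of -0.42 to -0.04 and of -0.47 to -0.27. The percentile scalings, no scaling and the control spots differ only by a factor per array. Subtracting the median removes that factor, so only quantile normalization and normexp could move these relative values for members above the floor.

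**Figure D4:**
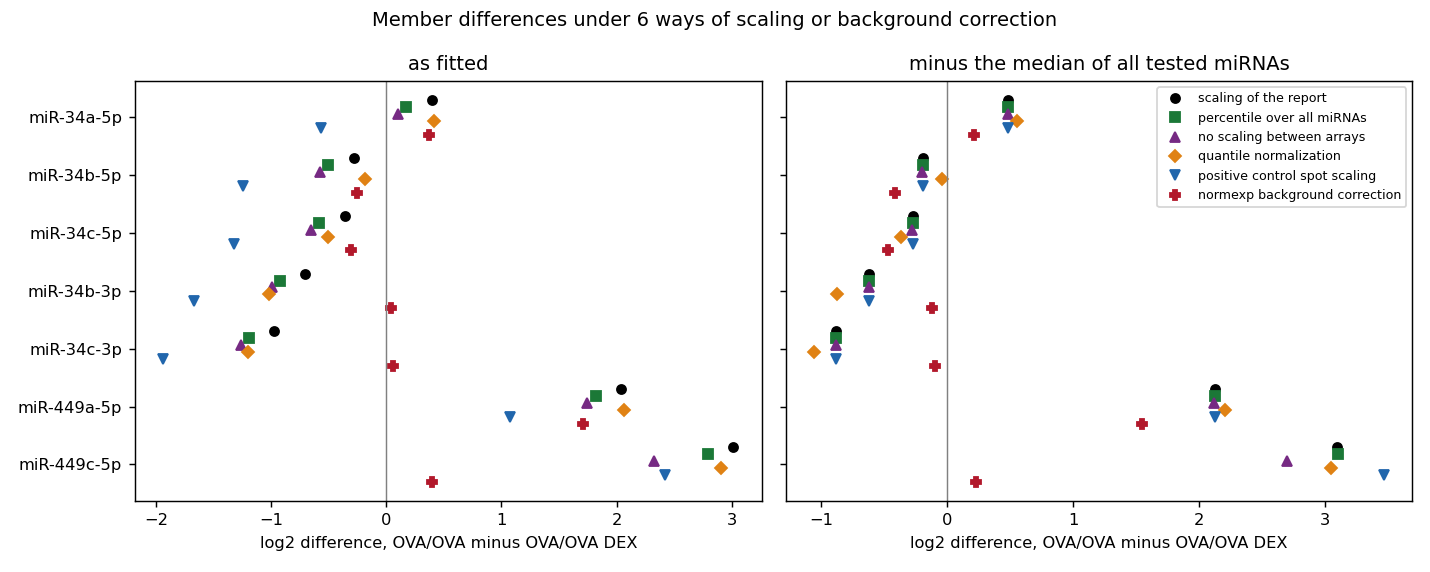
Log2 difference between OVA/OVA and OVA/OVA DEX (horizontal axis) of each member (vertical axis) under 6 ways of scaling or background correction, as fitted (left) and minus the median of all tested miRNAs (right). MiR-449a-5p is positive in all 6, from 1.07 to 2.06, and miR-34a-5p is negative at -0.57 in 1 of them as fitted. On the right, scalings that differ only by a factor per array coincide by construction for members above the floor.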

How the data were processed

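Total RNA of whole lung was hybridised to 16 arrays, 1 per sample, and groups and replicate numbers were taken from the labels. For every array the authors deposited the output of Agilent Feature Extraction 10.7.3.1, of which the background-subtracted spot intensity was used; these intensities are not normalized across arrays. Processed log2 values were also deposited, whose shift per array is not given in the sources used here. Those rows could be matched to the scanner values within 0.15 log2 for 154 of 672 rows, 4 of them members, and served as an alternative only.

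Control and outlier spots were left out (4.22% of member spots were outliers, and 0 were saturated). Spots were averaged per probe, probes summed per miRNA, and each array divided by the 75th percentile of the 206 miRNAs that had detection calls throughout, then multiplied by the median percentile so that values keep the unit of signal. Signals under a floor of 1.71 (the lowest detected signal per array, taken as its median; it was below 0 on 6 arrays) were set to that floor before log2.

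Group means were fitted with limma 3.58.1 (lmFit and eBayes) in R 4.3.3 with Benjamini-Hochberg adjustment over 266 miRNAs. Within-array differences were tested by exact permutation of arrays in Python 3.11.15 with numpy 2.4.6, scipy 1.17.1 and pandas 2.3.3, and their 95% intervals hold the shifts this test does not reject, in steps of 0.01. The fold of miR-449c-5p sets the mean of the brighter group against a mean over the OVA/OVA DEX arrays. Each of these takes the lowest signal of a detected miRNA, or the floor or its own signal where higher. On simulated data with 50 of 266 miRNAs changed by 1.5 log2 in OVA/OVA DEX, the fit recovered 44 of them against OVA/OVA, 42 against PBS/OVA and 40 against PBS/PBS, with 0, 1 and 1 false calls. Leaving out 1 PBS/PBS array leaves 1, whose spread was taken to be that of the other groups. The number of arrays limits the precision.

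Every member is named, with the 3 nearest profiles outside the families and the brightest miRNA of each marker list. The members and lists were chosen with earlier results of these data known. Alternatives were other scalings, background correction, summaries over probes, floors, detection filters, blocks, tests and samples. Normexp was run on the median spot signal with an offset of 50, and a floor of 10 was added after the data had been seen.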

Additional observations from a re-analysis of the deposited data

Results flagged for a closer look

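In 2 of 21 member and group combinations with 4 or 6 arrays, 1 array lay far from the others by Dixon's criterion, which chance alone does in about 1 in 20 groups. MiR-34a-5p was 9.85 on OVA/OVA DEX replicate 4, below the other 3 arrays of that group at 10.47 to 10.53. MiR-34c-3p was 5.42 on PBS/OVA replicate 4, above the other 3 at 5.20 to 5.22.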

How the results depend on the processing

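Between OVA/OVA and OVA/OVA DEX, 2 members were called. The count was 4 with quantile normalization, 6 with scaling to the positive control spots, 1 with normexp, with a floor of 10 units, with the deposited processed values (4 members), with members detected on all arrays (5) and by the exact Mann-Whitney test, 6 with no requirement on size, and 2 to 3 leaving out each array. Against PBS/OVA, OVA/OVA had 0 calls, and 1 with control spot scaling. Against PBS/PBS it had 1, which became 4 without scaling or with control spots, 3 with no requirement on size, 0 with the deposited values, without a detection filter, with detection on all arrays, with slide as a block, with array brightness as a covariate, with only the 2 groups or by the exact Mann-Whitney test, and 0 to 2 leaving out each array. OVA/OVA DEX against PBS/OVA had 1, which became 0 with only the 2 groups or the exact Mann-Whitney test and 1 to 2 leaving out each array. OVA/OVA DEX against PBS/PBS had 0, and 2 with only the 2 groups. The 3 between-family pairs that passed within arrays became 0 to 4 leaving out each array, and the 0 arm pairs became 2 with quantile normalization. The cause of these moves was not tested, except that fewer arrays allow fewer permutations. The exact Mann-Whitney test cannot pass at 2 arrays against 6. For OVA/OVA DEX against PBS/OVA, its smallest possible p of 0.0286 became an adjusted p of 0.185.

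Arrays with the same replicate number did not deviate alike in most pairs, although groups of so few arrays cannot exclude pairing. Over 18 pairs the correlation of deviations was -0.78 to 0.41, with 3 above 0.1. With the replicate number as a block the counts of calls were 1 for OVA/OVA against PBS/OVA, 2 against PBS/PBS and 2 for OVA/OVA DEX against PBS/OVA, and miR-449a-5p differed by 2.20 between OVA/OVA and OVA/OVA DEX.

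Signs turned as follows. With normexp, miR-34b-3p was 0.038, 0.34 and 0.57 and miR-34c-3p 0.061, 0.30 and 0.46 in OVA/OVA against OVA/OVA DEX, PBS/OVA and PBS/PBS, miR-449c-5p was 0.11 in OVA/OVA DEX against PBS/OVA, and within arrays miR-34b-5p minus miR-34b-3p was -0.29 and -0.43, and miR-34b-3p minus miR-34c-5p 0.34 and 0.38, in OVA/OVA against OVA/OVA DEX and PBS/OVA. With control spots, miR-34a-5p was -0.57 and -0.64 against OVA/OVA DEX and PBS/PBS, and miR-449a-5p -0.35 and miR-449c-5p -0.036 against PBS/OVA. Without scaling, miR-449a-5p was -0.069 against PBS/OVA, -0.14 against PBS/PBS and -0.068 in PBS/OVA against PBS/PBS, miR-34a-5p -0.81 against PBS/PBS, and miR-34b-5p -0.026 in OVA/OVA DEX against PBS/OVA. With the percentile over all miRNAs, miR-34a-5p was -0.24 against PBS/PBS. With quantile normalization, miR-34b-5p minus miR-34c-5p was 0.15 against PBS/OVA. Leaving out each array, miR-34b-3p was -0.30 to 0.12 in OVA/OVA against PBS/OVA, miR-34b-5p minus miR-34c-5p -0.061 to 0.0088, miR-34b-5p minus miR-34b-3p -0.23 to 0.20 and miR-34b-3p minus miR-34c-5p -0.24 to 0.20. Of the single member values under settings other than leaving out an array, 485 kept direction and call, 17 turned, 12 lost and 22 gained the call. Signal over background limits miR-449c-5p and the 3p arms most.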

Other observations

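Within arrays, miR-34a-5p minus miR-34c-5p was 0.52 to 0.79 in PBS/OVA and 0.32 to 0.78 in OVA/OVA, above all OVA/OVA DEX arrays (-0.52 to 0.11) and both PBS/PBS arrays (-0.039 and -0.021). The difference between miR-34a-5p and miR-34b-5p was -0.22 to 0.13 and -0.38 to 0.031 in the first 2 of these groups, -1.06 to -0.64 with DEX, and -0.80 and -0.73 in PBS/PBS. These pairs were chosen after their values were seen and are given without a test.

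Some of the authors' deposited processed rows held the same values for different members. The row of miR-449c equalled that of miR-449a within 0.1 log2 on 12 of 16 arrays, the row of miR-34c* that of miR-34c on 8, and the row of miR-34b-3p that of miR-34a on 4. The row of miR-449c matched the scanner values of miR-449c-5p on 0 arrays, and the rows of miR-34a, miR-34b-5p, miR-34c and miR-449a matched theirs on all 16.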
